A study of Mus musculus with 6 samples.

Results

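The Fat, Dachsous and Celsr genes of the mouse were followed in a model of myotonic dystrophy type 1 (DM1) in muscle cells. The family was taken as 9 genes, Fat1, Fat2, Fat3, Fat4, Dchs1, Dchs2, Fjx1, Celsr1 and Celsr2, found by gene name and joined by gene identifier to the table of estimated counts. They are 9 of the 55421 genes in that table, and 7 of the 9 passed the expression filter that left 18140 genes for testing. Fat3 and Celsr2 did not pass. The genes were selected on values of the comparison described here, so their levels and differences are a description and no test of the family is given.

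RNA-seq was done on day 4 of differentiation in 3 control libraries and 3 miR-322/-503 libraries. Each group was a stable line of C2C12, a mouse myoblast line that forms myotubes when serum is lowered. Both lines carried the pCDNA3-GFP-(CUG)200 transgene, in which CUG repeats follow a GFP sequence, so the control was itself a DM1 cell and no line without repeats was analysed here. Control cells held an empty control vector, and the other line held pLL4.0 expressing miR-322 and miR-503. Each condition was 1 selected line, so the effect of the microRNAs and a difference between the lines cannot be told apart. The study's methods speak of biological replicates for its assays in general, and the labels do not say whether the libraries of a group came from separate cultures. If they did not, p-values measure only the spread between these samples, which may be technical.

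Fat and Dachsous proteins are very large cadherins that bind each other between neighbouring cells. Fat4 acts mainly as the receptor and Dachsous 1 as its ligand, and the Golgi kinase Fjx1 phosphorylates their cadherin domains and changes how tightly they bind. The pathway helps to orient cells within a tissue and feeds into Hippo signalling, which restrains the coactivators Yap1 and Wwtr1 (TAZ). Celsr proteins are cadherins that span the membrane several times and belong to the core planar cell polarity machinery. In muscle, Fat1 is known for its role in myoblast migration and muscle shaping.

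The overexpressed microRNAs share most of their seed (bases 2 to 8, in capitals), the stretch that pairs with target RNAs. They are shown because every search for matches below used them. Both lie on the minus strand of the X chromosome in GRCm38.p6, miR-322-5p at chrX:53054306-53054327 and miR-503-5p at chrX:53054027-53054049, and the sequences are those of RefSeq.
miR-322-5p: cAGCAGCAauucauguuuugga
miR-503-5p: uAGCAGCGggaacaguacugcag
In a DNA copy of a target, the match is TGCTGCT for miR-322 and CGCTGCT for miR-503.

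The libraries held 73532084 to 92157388 estimated counts each. About 4 estimated counts stand for 1 read pair, so these totals correspond to about 18383021 to 23039347 read pairs. Trimmed mean (TMM) scaling factors lay between 0.977 and 1.03. Levels below are in CPM, the counts scaled by library size and these factors, unless given in TPM, which also corrects for transcript length. Of 15 muscle markers, 13 had a mean of at least 1 TPM, and their summed level was 3710 to 4079 TPM in the control and 4598 to 4799 TPM in the miR-322/-503 libraries. Of these 15, 9 were called higher and 1 lower. With edgeR, Des rose by a log2 fold change of 0.65 (adjusted p = 0.000158), Ckm by 0.87 (adjusted p = 9.57e-05) and Myod1 by 0.37 (adjusted p = 0.0270), while Myog fell by 0.74 (adjusted p = 0.000665). Celf1, a target of the microRNAs named in the study, was higher by a log2 fold change of 0.29 (adjusted p = 0.0160). This is an RNA level, and Celf1 protein was not measured here. The study also names the CUG repeat RNA as a direct target, and its level was not measured here.

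In the control, the family was mostly Fat1 and Fat4, and in the miR-322/-503 cells it was almost entirely Fat1. Summed over the 9 genes, the level was 81.1, 84.6 and 81.7 TPM in the control libraries and 31.0, 36.5 and 30.1 TPM in the miR-322/-503 libraries. Every miR-322/-503 library was below every control library. The mean was 82.5 ± 1.88 TPM (SD, n = 3) in the control and 32.5 ± 3.48 TPM (SD, n = 3) with the microRNAs. Fat1 made up 67.3% ± 0.722 (SD, n = 3) of this sum in the control and 90.5% ± 0.730 (SD, n = 3) in the miR-322/-503 group. For Fat4 the share was 26.9% ± 0.534 (SD, n = 3) against 3.26% ± 0.0603 (SD, n = 3). Dchs2 kept a share close to 5%, with 5.01% ± 0.273 (SD, n = 3) in the control and 5.11% ± 0.448 (SD, n = 3) in the miR-322/-503 group.

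**Figure D1:**
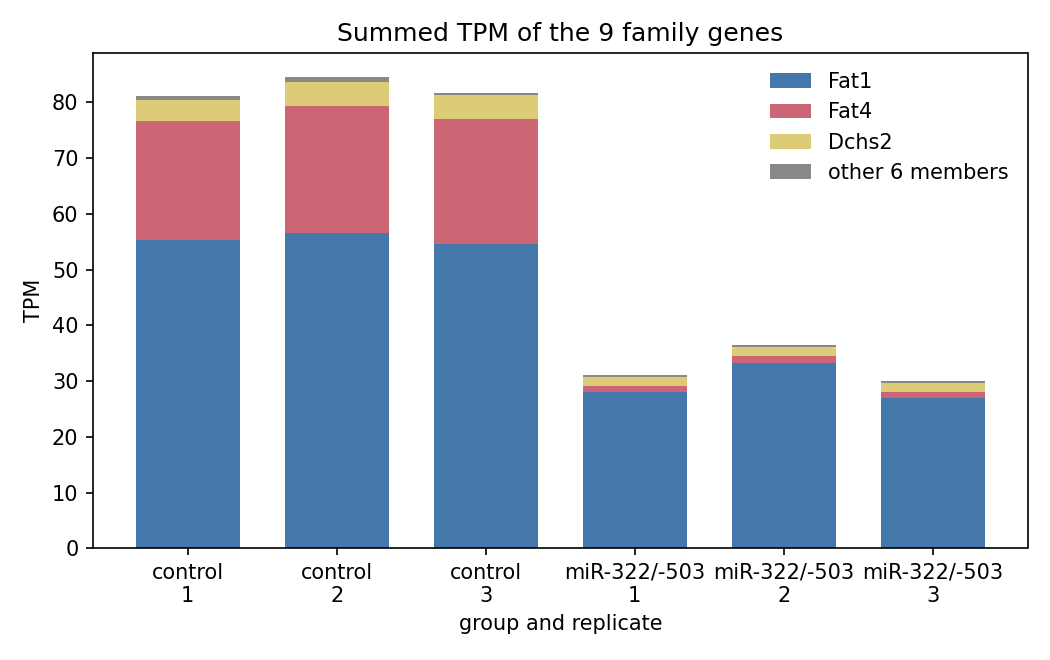
Summed TPM of the 9 family genes in each library, stacked by gene, with the 6 genes other than Fat1, Fat4 and Dchs2 combined. The bars reach 81.1 to 84.6 TPM in the control and 30.1 to 36.5 TPM in the miR-322/-503 group, and the Fat4 segment shrinks from 21.4 to 22.7 TPM to between 0.991 and 1.19 TPM.

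At the threshold of an adjusted p under 0.05 in edgeR, 4 members were lower in the miR-322/-503 cells (Fat1, Fat4, Dchs1 and Dchs2) and 1 was higher (Fat2). Of all tested genes, 15.5% were called lower and 13.2% higher. With the added cut-off of a log2 fold change beyond 1 in size, 3 members were lower (Fat4, Dchs1 and Dchs2) and 1 was higher (Fat2), where the shares over all tested genes were 5.29% and 4.59%. The ranges of the groups did not overlap for 4 lower members and 1 higher member, the same genes as at the first threshold, and this held for 23.5% of tested genes in the lower and 21.6% in the higher direction. Because the members were picked from this comparison, nothing is read from these counts.

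**Figure D2:**
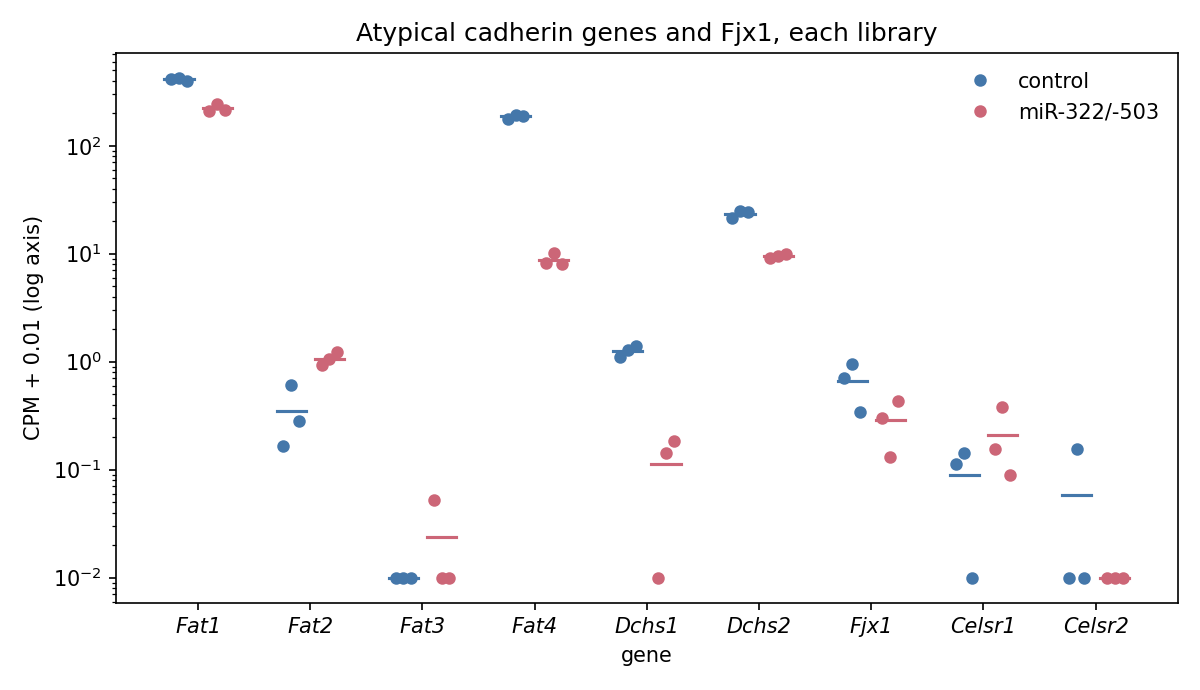
CPM of each family gene in each library, on a log axis with 0.01 added so that libraries at 0 can be drawn; points are libraries and short lines are group means. The groups stand apart for Fat1, Fat4, Dchs1 and Dchs2 (lower with miR-322/-503) and for Fat2 (higher), and they overlap for Fjx1 and Celsr1.

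Among the receptors, Fat4 had the greatest difference on the log2 scale of the tested members. Fat4 (ENSMUSG00000046743) lies on the plus strand at chr3:38886940-39011985 in GRCm38. Its level was 178, 193 and 189 CPM in the control libraries and 8.26, 10.03 and 8.005 CPM in the miR-322/-503 libraries. The lowest control library was thus far above the highest miR-322/-503 library, and the replicates of each group lay close together. The means were 187 ± 7.62 and 8.76 ± 1.10 CPM (SD, n = 3 each), a log2 fold change of -4.42 (SE 0.10), or 21.3-fold lower. Fat4 held rank 118 of 18140 tested genes, counted from the lowest log2 fold change. Of 1800 tested genes within a factor of 2 of its control level, 3 had a lower log2 fold change, and of the 1980 tested genes with at least 100 CPM in the control, 4 did.

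Fat1 was the most abundant member in every library. This giant cadherin (ENSMUSG00000070047) is encoded on the plus strand at chr8:44935447-45052257. Its level was 410, 424 and 399 CPM in the control and 208, 245 and 214 CPM with miR-322/-503. The groups did not overlap. The means were 411 ± 12.3 and 223 ± 20.01 CPM (SD, n = 3 each), a log2 fold change of -0.89 (SE 0.077), or 1.85-fold lower. Among 665 tested genes within a factor of 2 of its control level, 50 had a lower log2 fold change.

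The ratio of Fat4 to Fat1 within a library does not depend on how libraries are scaled. In TPM it was 0.388, 0.401 and 0.411 in control cells and 0.0352, 0.0358 and 0.0369 with the microRNAs. Fat4 therefore stood far below Fat1 in each miR-322/-503 library and much closer to it in each control library.

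Fat2, a Fat cadherin best known from cerebellar granule neurons, was close to the detection limit. It lies on the minus strand at chr11:55250609-55336564. Its level was 0.155, 0.593 and 0.272 CPM in the control and 0.923, 1.04 and 1.21 CPM with miR-322/-503. The lowest miR-322/-503 library was above the highest control library. The log2 fold change was 1.63 (SE 0.48), from 0.340 ± 0.227 to 1.06 ± 0.144 CPM (SD, n = 3 each). It rests on about 21 read pairs in the 3 control libraries and 64 in the 3 miR-322/-503 libraries. The call did not hold with any 1 of 5 libraries left out (all but control replicate 2), where the log2 fold change ranged from 1.29 to 1.72. Without control replicate 2 it was 2.29 and the call held. Nor was Fat2 called without the filter on low counts, at a log2 fold change of 1.63.

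Fat3, another Fat cadherin of the nervous system, was at 0 counts in 5 of 6 libraries. The exception was miR-322/-503 replicate 1, which held 4 estimated counts, about 1 read pair. A count of 0 over the 3 control libraries allows a level of up to 0.0491 CPM, covering counting error only. Fat3 lies on the minus strand at chr9:15910189-16501285.

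Of the ligands, Dchs2 was the more abundant. The Dachsous 2 gene (ENSMUSG00000102692) lies on the plus strand at chr3:83127948-83357209. Its level was 21.4, 24.9 and 24.2 CPM in the control and 9.04, 9.52 and 9.999 CPM with miR-322/-503. No miR-322/-503 library reached the control range. The means were 23.5 ± 1.87 and 9.52 ± 0.478 CPM (SD, n = 3 each), a log2 fold change of -1.30 (SE 0.095), or 2.47-fold lower. Of 4785 tested genes within a factor of 2 of its control level, 125 had a lower log2 fold change.

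Dchs1, the main partner of Fat4, was at a low level in both groups. It lies on the minus strand at chr7:105752990-105787654. Its level was 1.09, 1.28 and 1.40 CPM in the control and 0, 0.133 and 0.173 CPM with miR-322/-503. The control libraries were close to each other, and the miR-322/-503 libraries lay at or near 0. In read pairs this was about 77 over the control libraries and 6 over the miR-322/-503 libraries, a ratio of 12.9 with a 95% exact interval of 5.66 to 36.2 for counting error only. The fitted log2 fold change was -3.65 (SE 0.82), and leaving out 1 library moved it from -3.02 (without miR-322/-503 replicate 1) to -4.30 (without miR-322/-503 replicate 3), with the call kept. In TPM, the ratio of Dchs1 to Dchs2 was 0.0507, 0.0515 and 0.0574 in the control libraries and 0, 0.0135 and 0.0160 in the miR-322/-503 libraries.

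The kinase Fjx1 did not separate the groups. It lies on the minus strand at chr2:102449366-102452499, with a coding length far below that of the cadherins. Its level was 0.698, 0.933 and 0.332 CPM in the control and 0.294, 0.120 and 0.425 CPM with miR-322/-503. Control replicate 3 was below miR-322/-503 replicate 3. The log2 fold change was -1.22 (SE 0.57) and was not called. About 40 read pairs in the control and 17 in the miR-322/-503 group stand behind it.

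The Celsr genes were barely detected. Celsr1, on the minus strand at chr15:85898929-86033777, had 0.103, 0.133 and 0 CPM in the control and 0.147, 0.373 and 0.0798 CPM with miR-322/-503, about 5 and 12 read pairs in all. These ranges overlapped and the difference was not called. Celsr2, on the minus strand at chr3:108390851-108415552, had 12 estimated counts in control replicate 2, about 3 read pairs, and 0 in the other 5 libraries. The remaining mouse paralog, Celsr3, which is not one of the 9 genes, had 0.103, 0.218 and 0.201 CPM in the control and 0.315, 0.240 and 0.372 CPM with miR-322/-503. Its groups did not overlap, about 11 and 19 read pairs stand behind them, and the difference was not called.

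**Figure D3:**
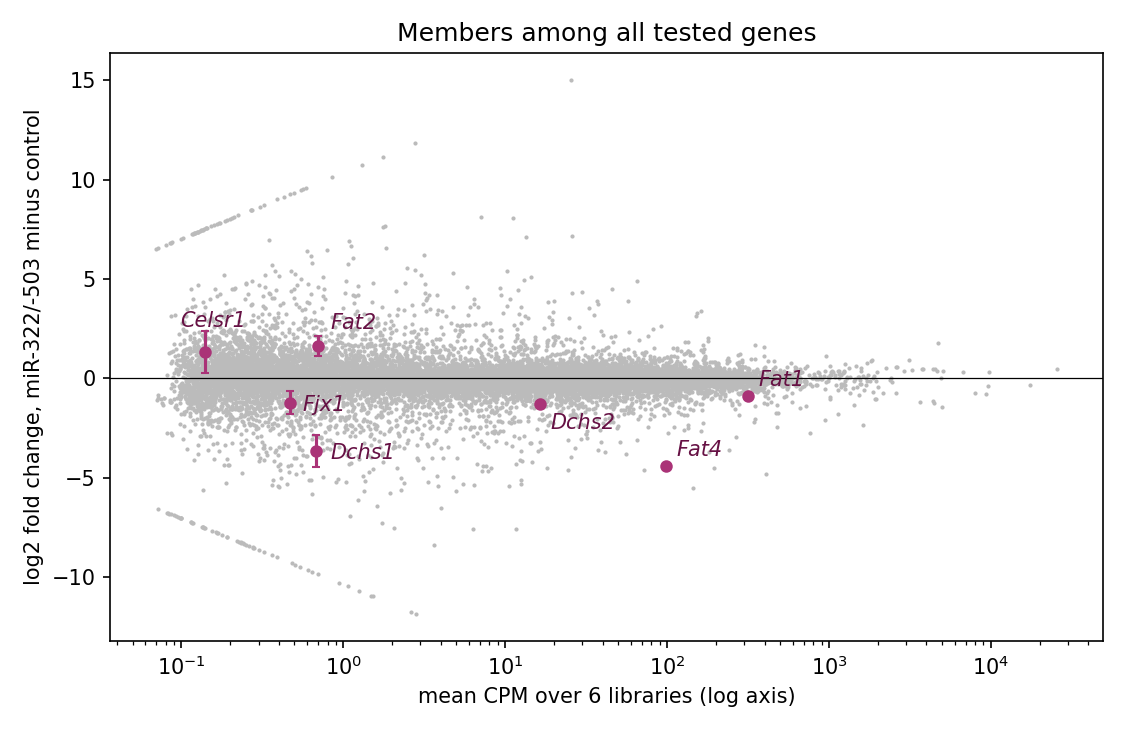
Log2 fold change (miR-322/-503 minus control) of each of the 18140 tested genes (grey) against its mean CPM over 6 libraries on a log axis, with the 7 tested family genes in purple and bars of 1 SE. Fat4 lies at -4.42 in a region of the plot where few genes are as low, while Fat2, Fjx1, Dchs1 and Celsr1 lie at the low end of expression, where grey points spread widely, and the slanted outer lines are genes at 0 in 1 group, whose fitted values depend on the prior count.

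Compared per transcript length, the order of the members in the control was Fat1 (55.5 ± 1.06 TPM), Fat4 (22.2 ± 0.687 TPM), Dchs2 (4.14 ± 0.290 TPM), Fjx1 (0.391 ± 0.182 TPM), Dchs1 (0.220 ± 0.0254 TPM), Fat2 (0.0440 ± 0.0289 TPM), Celsr1 (0.0138 TPM), Celsr2 (0.00855 TPM) and Fat3, which was at 0 (SD, n = 3). Fat1, Fat4 and Dchs2 were separated from their neighbours in every library. Fjx1 and Dchs1 overlapped, and so did the lowest members. In the miR-322/-503 group the order was Fat1 (29.5 ± 3.37 TPM), Dchs2 (1.65 ± 0.0394 TPM), Fat4 (1.06 ± 0.115 TPM), Fjx1 (0.161 ± 0.0887 TPM), Fat2 (0.136 ± 0.0138 TPM), Celsr1 (0.0474 ± 0.0496 TPM), Dchs1 (0.0165 ± 0.0144 TPM), Fat3 (0.00143 TPM) and Celsr2, which was at 0 (SD, n = 3). Here the ranges of Dchs2 and Fat4 did not overlap, and Dchs2 stood above Fat4 in every library, whereas Fat4 was above Dchs2 in every control library. Fjx1 and Fat2 overlapped. Taking FPKM, or CPM per kilobase of exon, left each member at the same place in both orders. This is no independent check. Within a library FPKM has the order of TPM by construction, and CPM per kilobase of exon is a closely related measure.

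A transcript that runs across the start of Fat4 was also lower. C230034O21Rik, on the minus strand at chr3:38874570-38888259, overlaps the first 1320 bases of the Fat4 gene and is described here for that reason. It had 3.72, 4.80 and 4.46 CPM in the control and 0.283, 0.800 and 0.0798 CPM with miR-322/-503. Both genes were far lower in each miR-322/-503 library. Its log2 fold change was -3.49 (SE 0.63, adjusted p = 0.00548 in edgeR). The sources used here do not say whether reads were counted by strand, so reads of Fat4 and of this antisense transcript cannot be told apart in the shared stretch. Its counts were at most 396 in a control library, against at least 13812 for Fat4. Of the other genes that overlap a member, Gm2366, inside Fat1, had a log2 fold change of -0.86 (SE 0.49, adjusted p = 0.247), and 4 had at most 2 counts in any library.

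The medians of the genes around the members did not share one direction. Within 1 Mb, Fat4 had 4 tested neighbours whose median was -0.23 on the log2 scale, Dchs2 had 8 with a median of -0.27, Fat1 had 14 with a median of 0.34 and Dchs1 had 26 with a median of -0.02. The called neighbours of Dchs2 were both lower, Tlr2 (-1.46, adjusted p = 5.50e-06 in edgeR) and Sfrp2 (-1.27, adjusted p = 4.71e-05). Those of Fat4 were lower too, the overlapping C230034O21Rik (-3.49) and Ankrd50 (-0.33, adjusted p = 0.00345). Near Fat1, called genes lay on both sides of 0. Fat4 and Dchs2 share chromosome 3, where the median over tested genes was 0.01. Long transcripts as a class had a median near 0. The 348 tested genes with a transcript of at least 10000 bases had a median of 0.04, beside -0.01 over all tested genes.

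The promoter of Fat4 and that of Dchs2 are shown because these genes were lower together and a promoter sequence was at hand for both. Each sequence runs from 250 bases before to 50 bases after the RefSeq start in GRCm38.p6, on the plus strand. Searches on both strands looked for GGAATG (a Tead motif), CAGCTG (an E-box bound by myogenic factors) and TGACTCA (an AP-1 site). Neither sequence holds any of them, so no letters are in capitals.
Fat4, chr3:38886690-38886989: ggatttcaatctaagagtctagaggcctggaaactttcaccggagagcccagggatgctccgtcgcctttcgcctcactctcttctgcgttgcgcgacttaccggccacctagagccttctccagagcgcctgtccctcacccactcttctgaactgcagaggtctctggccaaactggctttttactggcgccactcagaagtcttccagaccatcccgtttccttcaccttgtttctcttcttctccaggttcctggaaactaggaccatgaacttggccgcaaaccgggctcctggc
Dchs2, chr3:83127277-83127576: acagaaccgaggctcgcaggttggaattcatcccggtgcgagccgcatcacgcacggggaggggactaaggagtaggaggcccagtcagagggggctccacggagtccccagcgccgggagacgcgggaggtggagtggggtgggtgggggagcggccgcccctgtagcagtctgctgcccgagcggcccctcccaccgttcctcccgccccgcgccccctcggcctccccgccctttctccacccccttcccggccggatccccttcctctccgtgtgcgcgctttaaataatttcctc
The RefSeq start of Dchs2 lies before the start of the gene as deposited, and its window ends before that start. The Fat4 window lies inside the span of the antisense transcript C230034O21Rik. GC content was 55.7% for Fat4 and 69.7% for Dchs2, beside a median of 52.7% over 32851 promoters. Of these promoters, 14.7% held the Tead motif, 16.3% the E-box and 5.20% the AP-1 site. The Fat1 window, chr8:44949958-44950257, and the Fat2 window, chr11:55312208-55312507, each hold 1 Tead motif, but both lie inside the gene as deposited and not at its start, so their letters are not shown. Fat3 and Celsr2 held none of the motifs. Dchs1, Fjx1 and Celsr1 were not in the table.

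Matches to the seeds were sought in the longest annotated 3'UTR of each member (GENCODE M21, GRCm38). In 8 of the 9 members there was no match to either seed, and the same was found when all annotated transcripts of the gene were searched. Fat3 was the exception, with 2 matches to miR-322 at bases 2706 to 2712 and 3067 to 3073 of a 3'UTR of 4810 bases, shown with the match in capitals and 9 bases on each side.
Fat3, first match: tcatcagaaTGCTGCTtttgccaaa
Fat3, next match: agagtctttTGCTGCTgagcctcat
Fat3 was at 0 counts in every control library, so these matches could not be set beside a difference. The members' 3'UTRs were 592 (Dchs1) to 4810 bases (Fat3) long, and the median over tested genes was 1343 bases. Among 13487 tested genes with a 3'UTR, 30.0% held a match to either seed. The median log2 fold change was 0.01 for the 4047 genes with a match and -0.02 for the 9440 genes without.

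The coding sequences of the members held few seed matches for their length, apart from Fjx1, Celsr1 and Celsr2. Fat1 had 0 matches in 4645 codons. Fat4 had 1 match, to miR-503, in 4981 codons. Dchs2 had 3 in 3346 codons and Dchs1 2 in 3291 codons. Per kilobase of coding sequence this was 0 for Fat1, 0.0669 for Fat4, 0.299 for Dchs2 and 0.203 for Dchs1, below the 0.421 found over 13682 tested genes. Fat2 had 0.153 and Fat3 0.146 per kilobase, while Celsr1 had 0.659, Celsr2 0.685 and Fjx1, with 3 matches in 450 codons, 2.22. The matches of the lower members Fat4 and Dchs2 are shown with the match in capitals, since they are the only full matches found in the 3'UTR and coding sequences of these genes.
Fat4, bases 13553 to 13559 of the coding sequence, miR-503: cagccctagCGCTGCTggtcctcag
Dchs2, bases 284 to 290, miR-503: atgactcccCGCTGCTggacgactt
Dchs2, bases 698 to 704, miR-322: tagacttggTGCTGCTgcggcgctt
Dchs2, bases 8190 to 8196, miR-322: cgtctctttTGCTGCTgtgcatatc
A match is a run of letters and was not tested as a binding site.

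Genes that work with the members moved in both directions. Of 24 tested Fat and Dachsous partners, 5 rose and 7 fell, with a median log2 fold change of -0.16. Patj, a scaffold of the apical Crumbs complex, rose from 15.2 ± 0.782 to 44.1 ± 1.24 CPM (SD, n = 3 each), a log2 fold change of 1.53 (adjusted p = 1.02e-05 in edgeR). Homer1, a scaffold protein of the Homer family, rose by a log2 fold change of 0.73 (adjusted p = 0.000986). Enah, an actin regulator of the Ena/VASP family, fell by 0.63 (adjusted p = 0.000620), and Psen2, a subunit of the gamma-secretase protease, fell by 0.54 (adjusted p = 0.0122). Without control replicate 1, 2 partners rose, and without control replicate 2 or miR-322/-503 replicate 3, 3 fell. The shares over all tested genes are those given above, and no test of a list was made.

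In the planar cell polarity list, 6 of 29 tested genes rose and 9 fell, with a median log2 fold change of -0.03 that turned positive under several alternatives (0.02 with at least 10 counts in every library). Of the Prickle genes, which encode cytoplasmic core components, Prickle2 and Prickle3 fell and Prickle1 rose. Prickle2 fell from 27.7 ± 1.51 to 1.51 ± 0.288 CPM (SD, n = 3 each), a log2 fold change of -4.20 (adjusted p = 3.55e-06 in edgeR). Prickle1 rose from 0.566 ± 0.198 to 6.31 ± 0.486 CPM (SD, n = 3 each), a log2 fold change of 3.48 (adjusted p = 9.40e-05). Prickle3 fell by 0.68 (adjusted p = 0.0169). The formin Daam2 rose by 1.48 (adjusted p = 3.34e-06). Gpc4, a cell surface heparan sulfate proteoglycan, had a mean of 4.08 ± 1.07 CPM (SD, n = 3) in the control and no miR-322/-503 library above 5 estimated counts. Against a floor of 12 estimated counts per library (3 read pairs) it was at least 27.5-fold lower (adjusted p = 0.000285).

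In the Hippo core list, 7 of 31 tested genes rose and 9 fell, with a median of -0.12, or -0.07 without miR-322/-503 replicate 2. Wwc1 (KIBRA), an upstream activator of the pathway, fell by a log2 fold change of 2.36 (adjusted p = 0.000431 in edgeR). The angiomotin family gene Amotl2 fell from 199 ± 8.52 to 56.2 ± 17.4 CPM (SD, n = 3 each), by 1.83 (adjusted p = 0.000749). Tead2, a DNA-binding partner of Yap1, rose by 1.04 (adjusted p = 0.000596), and the kinase Taok1 rose by 0.71 (adjusted p = 0.00289). Without control replicate 1 or miR-322/-503 replicate 3, 4 genes of the list rose.

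Of the genes listed as targets of Yap1 and Wwtr1, 3 of 25 tested genes rose and 13 fell, with a median of -0.19. Over all tested genes, 13.2% were called higher and 15.5% lower, and no test of the list was made. Fjx1 is often counted among these targets and was left out of the count because it is a member. Ccn1, a secreted matricellular protein, fell from 739 ± 25.4 to 224 ± 10.7 CPM (SD, n = 3 each), a log2 fold change of -1.72 (adjusted p = 3.27e-06 in edgeR). Its relative Ccn5 fell from 70.8 ± 4.78 to 7.64 ± 1.45 CPM (SD, n = 3 each), a log2 fold change of -3.21 (adjusted p = 8.48e-06). F3 (tissue factor) fell by 2.37 (adjusted p = 4.81e-06). The 3 genes that rose were Ankrd1, by 0.58 (adjusted p = 0.00216), Myof, by 0.44 (adjusted p = 0.000779), and Edn1, by 1.13 (adjusted p = 0.000262). The list shares 4 genes with the Hippo core list (Ajuba, Amotl2, Lats2 and Ptpn14), so the lists are not separate counts.

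**Figure D4:**
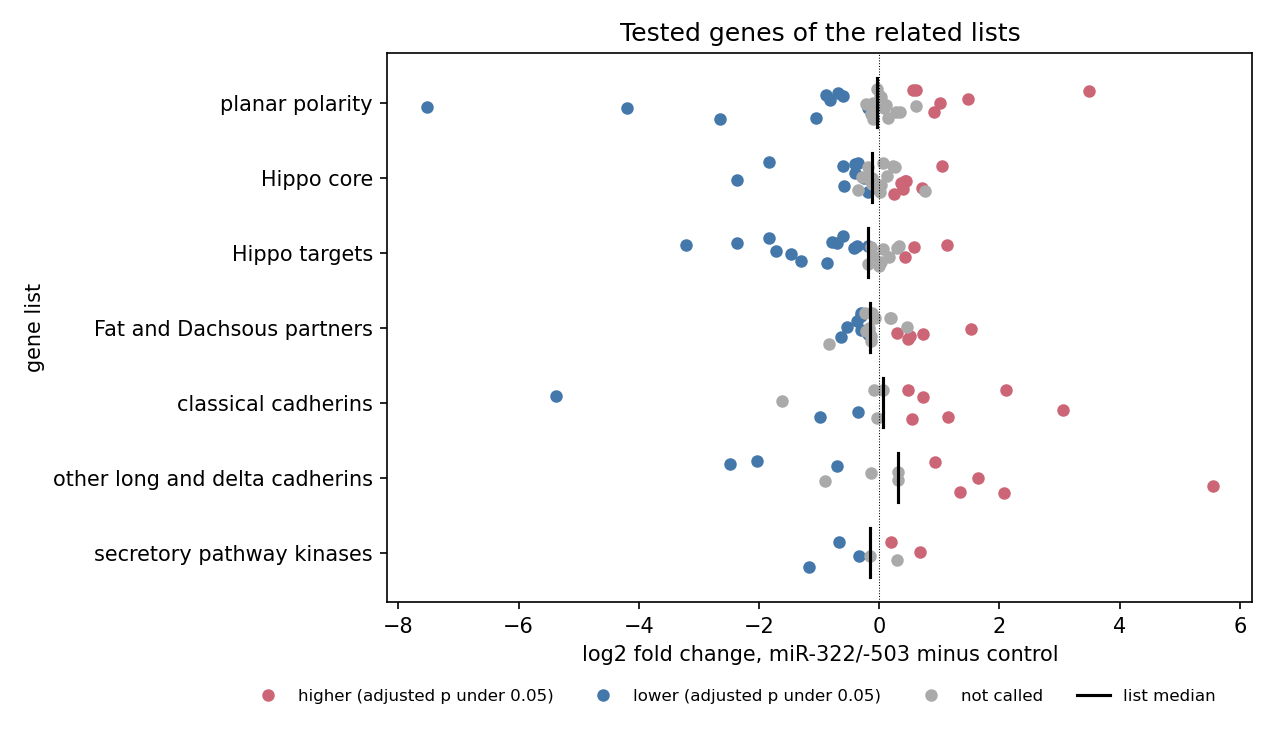
Log2 fold change (miR-322/-503 minus control) of each tested gene in 7 related lists, without the 9 family genes; red and blue points were called higher and lower at an adjusted p under 0.05 in edgeR, grey points were not, and black bars are list medians. Called genes lie on both sides of 0 in each list, and the Hippo targets list has the most genes called lower, 13 of 25.

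Other cadherin genes moved in both directions. Of 13 tested classical cadherin and catenin genes, 6 rose and 3 fell, and the median log2 fold change was 0.07 (0.49 when each library had to hold at least 10 counts, 0.29 with limma on log2(TPM + 1), 0.10 without control replicate 1 and 0.03 without control replicate 3). Cdh2 (N-cadherin), a main cadherin of myoblasts, fell from 281 ± 14.9 to 143 ± 10.6 CPM (SD, n = 3 each), a log2 fold change of -0.98 (adjusted p = 8.87e-05 in edgeR). Cdh11 rose from 17.8 ± 0.880 to 77.0 ± 7.31 CPM (SD, n = 3 each), by 2.12 (adjusted p = 5.50e-06). Cdh13, which is held in the membrane by a lipid anchor, rose by 1.14 (adjusted p = 2.12e-05), and Cdh10 rose by 3.05 from a level of 0.344 CPM (adjusted p = 5.43e-05).

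A mixed list held protocadherins and other cadherin-related genes, among them calsyntenin genes, a desmoglein gene and Ret. Of its 12 tested genes, 5 rose and 3 fell, with a median of 0.31. The median was 0.17 without control replicate 3, 0.47 without control replicate 1 and 0.11 with limma on log2(TPM + 1). Cdhr1, a cadherin first known from photoreceptors, fell from 229 ± 11.998 to 41.0 ± 3.41 CPM (SD, n = 3 each), a log2 fold change of -2.48 (adjusted p = 2.24e-06 in edgeR). Pcdh18 fell by 2.03 (adjusted p = 5.77e-06). Pcdh1 rose by 2.08 (adjusted p = 1.01e-05). Pcdh20 rose from 0.101 ± 0.175 to 4.85 ± 0.970 CPM (SD, n = 3 each), and its fitted log2 fold change of 5.55 (SE 0.99, adjusted p = 0.00510) rests on a control group near 0.

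Fjx1 is one of several kinases that act on secreted and membrane proteins inside the secretory pathway. Of 7 tested relatives in this class, 2 rose and 3 fell, with a median log2 fold change of -0.16. Fam20a, a pseudokinase, fell by 0.67 (adjusted p = 0.000203 in edgeR), and Fam20c, the kinase of many secreted proteins, rose by 0.69 (adjusted p = 0.00187). Dipk1b fell by 1.17 (adjusted p = 0.0130) and Dipk2a by 0.34 (adjusted p = 0.0225). With any 1 library left out, 1 kinase rose.

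The genes whose pattern over the 6 libraries was nearest to Fat4, by root mean square distance in centred log2(CPM + 0.05), were 2610028E06Rik (distance 0.128) and Cnn1 (calponin 1, of smooth muscle type, distance 0.144). Cnn1 had means of 34.8 CPM in the control and 1.53 CPM with miR-322/-503. The other gene, 2610028E06Rik, had 0.967 CPM in the control and 0 with miR-322/-503, so its distance is set by the added 0.05 and no likeness is read from it. For Fat2, the nearest were 4930555A03Rik (distance 0.191) and Mrc1 (distance 0.198), both below 1 CPM in each group, where the added 0.05 also weighs on the distance.

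Markers of other cell types moved beside these differences. The 10 fibroblast and stromal markers summed to 4355 to 4645 TPM in the control and 3111 to 3346 TPM in the miR-322/-503 libraries, 8 of them had a mean of at least 1 TPM, and Thy1 and Tcf21 were at or under 12 counts in every library. Of the 8 tested, 2 were called higher and 4 lower. Col3a1 made up most of the sum and fell from a mean of 3455 to 2026 TPM, while Col1a1 rose from 603 to 848 TPM. The summed level of 7 epithelial markers was 44.5 to 51.6 TPM in the control against 13.9 to 18.9 TPM, of which Krt14 was nearly the whole, and Epcam, Krt5 and Cldn4 were at or under 12 counts. The 8 neural and glial markers summed to 51.0 to 54.9 TPM in the control and 98.8 to 120 TPM with miR-322/-503, mostly Tubb3, with Rbfox3, Snap25 and Sox10 at or under 12 counts. Of the 5 tested, Tubb3 was called higher (log2 fold change 1.14, adjusted p = 1.85e-05 in edgeR), and Syt1 (-2.67, adjusted p = 0.000205) and Gfap (-2.54, adjusted p = 0.00155) were called lower. The 7 endothelial markers were low throughout, with 0.633 to 0.835 TPM in the control against 1.61 to 2.50 TPM, and 5 of them (Pecam1, Cdh5, Kdr, Cldn5 and Emcn) were at or under 12 counts in every library. Of the 2 tested, Tek was called higher (log2 fold change 1.90, adjusted p = 0.000342 in edgeR) and Vwf was not called. Of the immune markers, 2 were tested. Cd68 was not called (log2 fold change 0.48, adjusted p = 0.102 in edgeR), and Lyz2, at 1.27 ± 0.481 CPM (SD, n = 3) in the control and at most 5 estimated counts in a miR-322/-503 library, was at least 8.55-fold lower (adjusted p = 0.00289). The part of these cells or states in the differences of Fat1, Fat4, Dchs1 and Dchs2 was not tested, and in such bulk samples fewer cells of a type and less RNA per cell cannot be told apart.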

How the data were processed

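RNA-seq was analysed in 3 control and 3 miR-322/-503 libraries of DM1 myoblasts on day 4 of differentiation, grouped by their labels. The authors made the deposited tables with StringTie from reads trimmed by Trim Galore and mapped to GRCm38 by HISAT2 (versions not given in the sources used here). The deposited matrix holds estimated counts per gene as whole numbers, not normalized. The deposited tables of single libraries hold FPKM, TPM and the coverage signal, and up to 13 duplicate gene rows per library were summed. A median of 75.0 bases per estimated count and a peak of covered bases at 300 for low genes gave 4 counts per read pair, which overstates counting precision. Intervals and floors cover counting error only. Replicates differed by more than sampling noise (chi-square per degree of freedom 14.8 to 21.4), so none was taken for a copy.

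Genes were tested with edgeR 4.0.16 in R 4.3.3 (TMM scaling, filterByExpr and the quasi-likelihood functions glmQLFit and glmQLFTest, with group as the only term and Benjamini-Hochberg adjustment over 18140 genes), a design used in place of the authors' DESeq2, and checked on simulated data. The simulation planted large changes only in genes above a mean count that Fat2 and Dchs1 do not reach. It therefore does not cover such low-count calls. CPM was computed on the TMM-scaled library size. Alternatives were DESeq2 1.42.0, other scalings and filters, limma 3.58.1 on log2(TPM + 1) and log2(TPM + 0.1), counts per read pair, a replicate block, glmTreat and leaving out each library. Of 55421 gene identifiers, 55154 were in GENCODE M21.

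The members and the lists were chosen with earlier results of these data known. Named were the members and Celsr3, for each list up to 4 genes with an adjusted p under 0.05, at least 1 CPM in the higher group and the greatest absolute log2 fold change, the 2 genes nearest in pattern to the member with the greatest rise and to that with the greatest fall, 4 muscle markers and Celf1. Prickle3, genes overlapping a member and single marker genes were named after their values were seen. So were the called neighbours of Fat4 and Dchs2 and the Hippo targets that rose. MicroRNA and promoter sequences are from RefSeq and transcripts from GENCODE M21. Protein sequences were not used here, and the summed level of the immune markers is not reported here.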

Additional observations from a re-analysis of the deposited data

How the results depend on the processing

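Of the family results, Fat4, Fat1, Dchs2 and Dchs1 kept their direction under each alternative that gave a value. Fat4 ranged from -4.52 to -3.49 on the log2 scale, Dchs2 from -1.37 to -0.95 and Fat1 from -0.96 to -0.84. Dchs1 was at -0.26 and no longer called with limma on log2(TPM + 1), which compresses low genes. Dchs1 also lost its call with glmTreat against a log2 fold change of 1. Fat1 could not be called by glmTreat, since its log2 fold change of -0.89 lies within that bound. The family count of lower genes was 2 with glmTreat and the count of higher genes was 0 with glmTreat, without a filter on low counts and with limma at either pseudocount (Fat2 was not in the limma fits), and 0 to 1 when leaving out each library. With the replicate block, 4 members were lower and 1 higher, as without it, and no call of a member changed. Deviations of libraries with equal replicate numbers correlated at 0.131, 0.0687 and 0.0451 and those with unequal numbers at -0.108 to 0.0402. Every library correlated best with its own number, a hint from the data and not the design, but not each pair exceeded 0.1, so the libraries were not treated as paired.

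Over all tested genes, 832 were higher and 959 lower with the added cut-off of a log2 fold change beyond 1 in size. At that cut-off limma on log2(TPM + 1) called 390 higher and 566 lower, and glmTreat 396 higher and 530 lower. The list counts that follow use the adjusted p alone. The glmTreat test, built to be stricter, called 2 genes higher and 2 lower in the planar polarity list, 0 and 2 in the Hippo core list, 0 and 6 in the Hippo targets list, 1 and 0 among the partners, 2 and 1 among classical cadherins, 3 and 2 among other cadherin-related genes, and 0 and 0 among the secretory kinases. It cannot call a gene whose log2 fold change lies within 1, so part of these lower counts was fixed in advance. With limma at either pseudocount, 3 Hippo core genes were higher, 3 partners higher and 4 lower, and 1 secretory kinase higher, and this last count was 1 without a filter too. Leaving out each library gave 4 to 7 higher genes in the Hippo core list, 2 to 4 higher and 3 to 6 lower partners, and 1 higher secretory kinase throughout. Beyond that limit of glmTreat, the causes of these changes were not tested. Of 293 counts recomputed, 243 stayed within 1.5 times the reported one, and no called difference of a member changed direction. These counts include those of glmTreat and the orders of members by FPKM. For single genes of the lists, only the counts were recomputed. The median of the planar polarity list turned positive under several alternatives, up to 0.03. Depth limits Fat2, Fat3, Fjx1, Dchs1 and the Celsr genes. A comparison of protein sequences was planned and not run.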
